A study of Mus musculus with 12 samples.

Results

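A group of 230 genes, of 13431 with a mean of at least 2 CPM (reads scaled to a common library total) in any group and 45792 listed in all, had raised RNA in neural stem cell (NSC) cultures lacking Ncf1 and a level near that of wild type (WT) after Igfbp2 was added. They were chosen by the measured means alone. The mean CPM in Ncf1-/- NSCs had to exceed that of WT by a log2 ratio of at least 0.585, and the mean with Igfbp2 had to lie below that of Ncf1-/- by the same amount. The mean with Igfbp2 also had to lie within 0.5 of WT on that scale, with 0.5 CPM added to every mean. The mirrored rule, lowered in Ncf1-/- and back with Igfbp2, held 83 genes, and 235 genes were raised in Ncf1-/- and raised further by Igfbp2. These counts depended on the scaling, and with TMM factors, another scaling between libraries, 94 genes met the rule and 168 the mirrored rule. Because the rule used every one of these comparisons, the levels and ratios of the 230 genes are descriptions of the choice and carry no test.

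The cultures were primary NSCs from the forebrain of neonatal mice, grown without serum in EGF and FGF, with 4 WT, 4 Ncf1-/- and 4 Ncf1-/- + Igfbp2 libraries. Ncf1 encodes a cytosolic organizer subunit of the superoxide-producing NADPH oxidase, and Igfbp2 is a secreted protein that binds insulin-like growth factors. WT cultures were untreated, and by the study's methods the mice were C57BL/6J, to which the Ncf1-/- line had been backcrossed. Mouse recombinant Igfbp2 was added 48 h after plating, at 100 ng/ml by the labels and at a lower concentration by the study's methods, and total RNA was taken 48 h later from treated Ncf1-/- cultures and from Ncf1-/- cultures given vehicle, which the labels call untreated. Each culture came from a single pup, and the RNA had been depleted of ribosomal RNA. The comparison of Ncf1-/- with WT addresses what the loss of Ncf1 changes, and the comparison of treated with vehicle-treated Ncf1-/- cultures addresses which of those changes added Igfbp2 reverses.

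The estimated counts had sums per library of about 18201600 to 34086600, which limits precision most for the 82 genes with a mean under 5 CPM in Ncf1-/-. Ncf1 itself had at most 7 counts in any WT library and at most 4.39 in any Ncf1-/- library, so its RNA did not check the genotype. The methods pair each treated culture with a vehicle culture of the same animal, but the summed RNA of 4 Y-linked genes ran from 132.5 to 142.4 CPM without and from 8.25 to 10.2 CPM with Igfbp2. Every stated pair thus differed in Y-linked RNA, which cultures of the same animal would share. The summed Y-linked RNA was 119 to 135 CPM in WT replicates 9 to 11 and 7.03 CPM in WT replicate 12. Treatment and sex-linked RNA therefore cannot be told apart between the Ncf1-/- groups. Of the 15 oligodendrocyte markers all were measured at 2 CPM or more, and their sum was 4383 to 16519 CPM in WT, 583 to 711 in Ncf1-/- and 628 to 789 with Igfbp2. Of the 16 NSC markers 15 were measured at that level, and their sum was 5192 to 12616 CPM in WT, 12240 to 13345 in Ncf1-/- and 11343 to 12350 with Igfbp2. The sum hides opposite changes, since the median log2 ratio of these 15 markers over WT was -0.26. The edgeR test called 5 of them higher and 9 lower in Ncf1-/-, against 4545 and 4433 of 15706 genes tested. Mbp, a myelin protein, ranged from 2049 to 4326 CPM in WT replicates 9, 10 and 12 and was 374 CPM in WT replicate 11, against 3.05 to 4.28 CPM in Ncf1-/-. The 10 astrocyte markers, 9 of them at 2 CPM or more, summed to 7715 to 14141 CPM in WT, 3265 to 3970 in Ncf1-/- and 3273 to 4440 with Igfbp2. The microglial markers Aif1, Tyrobp, C1qa, C1qb and C1qc were under 0.05 CPM. None of the listed markers of NSCs, oligodendrocytes, neurons, astrocytes, microglia, endothelium, mesenchyme, ependyma or blood was among the 230 genes, and the part of cell makeup in their levels was not tested. Fewer cells of a type and less RNA per cell cannot be told apart in these bulk libraries.

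Several members that are described first encode SR proteins or are long noncoding RNAs. Precursor RNAs are spliced by the spliceosome, which SR proteins guide to exons by binding the RNA through recognition motifs and other splicing factors through an arginine- and serine-rich tail. SR protein genes can include poison exons or keep introns, which lowers their own protein output. Long noncoding RNAs include scaffolds of nuclear bodies, such as Neat1 of the paraspeckle, and host transcripts from which microRNAs and small nucleolar RNAs (snoRNAs) are cut.

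Of the 230 genes, 157 were protein-coding in GENCODE M21, 70 were of another type and 3 were not in that annotation. Protein-coding genes made up 68.3% of the group and 92.2% of all 13431 genes. Long intergenic noncoding RNAs were 7.83% of the group and 1.43% of all, antisense genes 6.96% and 1.18%, and processed transcripts 6.52% and 0.938%. The 18 long intergenic noncoding RNAs had a median mean level of 3.86 CPM in Ncf1-/-, and the 157 protein-coding genes one of 14.7 CPM. In the mirrored set of 83 genes, protein-coding genes were 88.0%, and among the 235 genes raised further they were 97.0%. Among the protein-coding genes, 36.3% of the group and 21.3% of all had an annotated transcript of the nonsense-mediated decay type, and 48.4% and 43.8% had one with a retained intron. These shares describe the choice and were not tested, and the group also held more genes of low level, with 35.7% under 5 CPM in Ncf1-/- against 14.9% of all.

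**Figure D1:**
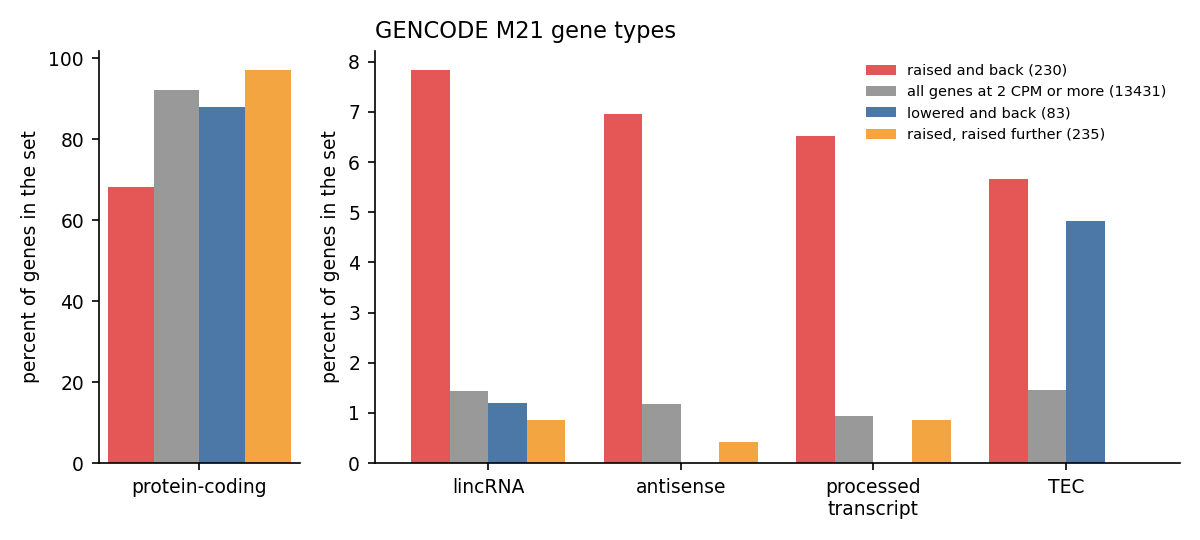
Bars give the percent of genes of each GENCODE M21 type (horizontal axis) in the 230 genes raised and back, all 13431 genes, the 83 lowered and back and the 235 raised further. Protein-coding genes are 68.3% of the first set and 92.2% of all genes, and each of the 4 other types drawn (TEC marks gene models still awaiting experimental proof) takes a larger share of the first set than of all genes.

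Several of the noncoding genes contain microRNA genes on their own strand. The mature microRNAs are shown because their hosts were among the members with known small RNA products, with the sequences from RefSeq (GRCm38.p6), and capitals mark the seed, bases 2 to 8, that pairs with targets. The hosts are Gm3764 for Mir9-1, 6720427I07Rik for Mirlet7a-1, Mirlet7d and Mirlet7f-1, Dleu2 for Mir15a and Mir16-1, and A330023F24Rik for Mir29b-2 and Mir29c.
miR-9-5p: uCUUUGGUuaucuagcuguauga
miR-9-3p: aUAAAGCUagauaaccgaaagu
let-7a-5p: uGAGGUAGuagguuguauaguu
let-7d-5p: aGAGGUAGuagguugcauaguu
let-7f-5p: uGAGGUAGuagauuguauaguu
miR-15a-5p: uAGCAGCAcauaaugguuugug
miR-16-5p: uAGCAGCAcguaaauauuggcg
miR-29b-3p: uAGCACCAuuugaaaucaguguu
miR-29c-3p: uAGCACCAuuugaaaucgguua
The 3 let-7 forms share 1 seed, miR-15a and miR-16 share another, and miR-29b and miR-29c share a further one. Of the 20 microRNA genes inside members, 15 were listed in the files and 13 of these stood at 0 in every library, with at most 1 count in the others. Mature microRNAs were therefore not measured, and the values below are those of the host RNAs. Hosts of microRNA genes were 14 of the 230 genes, or 6.09%, against 5.20% of all 13431 genes, and hosts of snoRNA genes were 11, or 4.78%, against 1.97%.

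Gm3764, a long noncoding RNA at chr3:88206813-88229959 on the plus strand of GRCm38 that contains Mir9-1, had 57.5, 66.5, 132 and 39.8 CPM in WT replicates 9 to 12. It had 260, 232, 209 and 149 CPM in the 4 Ncf1-/- libraries and 72.1, 85.3, 86.6 and 79.8 CPM with Igfbp2. All 4 Ncf1-/- libraries lay above the 8 others, and WT replicate 11 lay above every treated library. The log2 ratios were 1.52 for Ncf1-/- over WT and -1.39 for Igfbp2-treated over vehicle-treated Ncf1-/-. Without WT replicate 11 the treated mean lay 0.56 above WT, and Gm3764 no longer met the rule. Its RefSeq promoter, from 250 bases before to 50 after the start at chr3:88214232-88214531 on the plus strand, lies inside the GENCODE span given above, because RefSeq places the start downstream of the GENCODE one. It is shown because it belongs to a microRNA host with a large change in both comparisons. Capitals mark 5 matches, 4 to CCAAT and 1 to TGACGTCA, on either strand.
Gm3764 promoter: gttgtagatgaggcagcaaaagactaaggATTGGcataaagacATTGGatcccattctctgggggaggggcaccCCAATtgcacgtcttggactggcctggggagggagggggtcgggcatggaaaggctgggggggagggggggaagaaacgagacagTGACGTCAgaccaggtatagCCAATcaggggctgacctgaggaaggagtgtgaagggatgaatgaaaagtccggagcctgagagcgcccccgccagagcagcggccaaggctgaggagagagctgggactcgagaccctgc
The host of the let-7 cluster, 6720427I07Rik (chr13:48532905-48546500, minus strand), had 1.33 to 2.19 CPM in WT, 4.84 to 6.12 in Ncf1-/- and 1.46 to 2.19 with Igfbp2, with no overlap of Ncf1-/- with the others. A neighbouring member, Gm37238, overlaps it on the same strand, so their counts may share reads. Dleu2, the host of Mir15a and Mir16-1, had 9.44 to 13.4 CPM in WT, 17.8 to 22.3 in Ncf1-/- and 6.93 to 9.22 with Igfbp2. The direction for Dleu2 depended on the unit, since TPM (transcript-scaled values), which weigh counts by isoform length, gave a log2 ratio of -0.12 for Ncf1-/- over WT and CPM one of 0.76. A330023F24Rik, the host of Mir29b-2 and Mir29c, had low levels throughout, of 1.01 to 2.33 CPM in WT, 2.59 to 3.38 in Ncf1-/- and 1.26 to 2.14 with Igfbp2. Gm37795 overlaps Mir34a on the same strand and had 1.43 to 2.45, 4.63 to 5.33 and 1.82 to 2.46 CPM in WT, Ncf1-/- and treated libraries.

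Neat1, the architectural RNA of paraspeckles (chr19:5824708-5845478, minus strand), had 33.5, 33.5, 90.0 and 35.1 CPM in WT replicates 9 to 12. In Ncf1-/- it had 144, 161, 117 and 92.8 CPM, and with Igfbp2 it had 37.6, 41.3, 40.4 and 40.7 CPM. The treated libraries lay close together, and only WT replicate 11 came near the lowest Ncf1-/- library. The log2 ratios were 1.41 and -1.67, and without WT replicate 11 the first was 1.90. Of the 11 genes named Snhg (small nucleolar RNA host genes) at 2 CPM or more, 4 belonged to the group, against 1.71% of all genes. They were Snhg4, Snhg5, Snhg17 and Snhg20. Snhg17 had 9.40 to 14.8 CPM in WT, 16.4 to 23.2 in Ncf1-/- and 7.78 to 11.3 with Igfbp2. Snhg5 had 7.87 to 11.2, 15.3 to 17.9 and 8.96 to 12.6 CPM. The treated values of both genes overlapped those of WT. Outside the group, Snhg12 and Snhg8 had log2 ratios of -0.08 and 0.13 between Ncf1-/- and WT, while Snhg11 stayed above WT with Igfbp2 by 1.02.

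**Figure D2:**
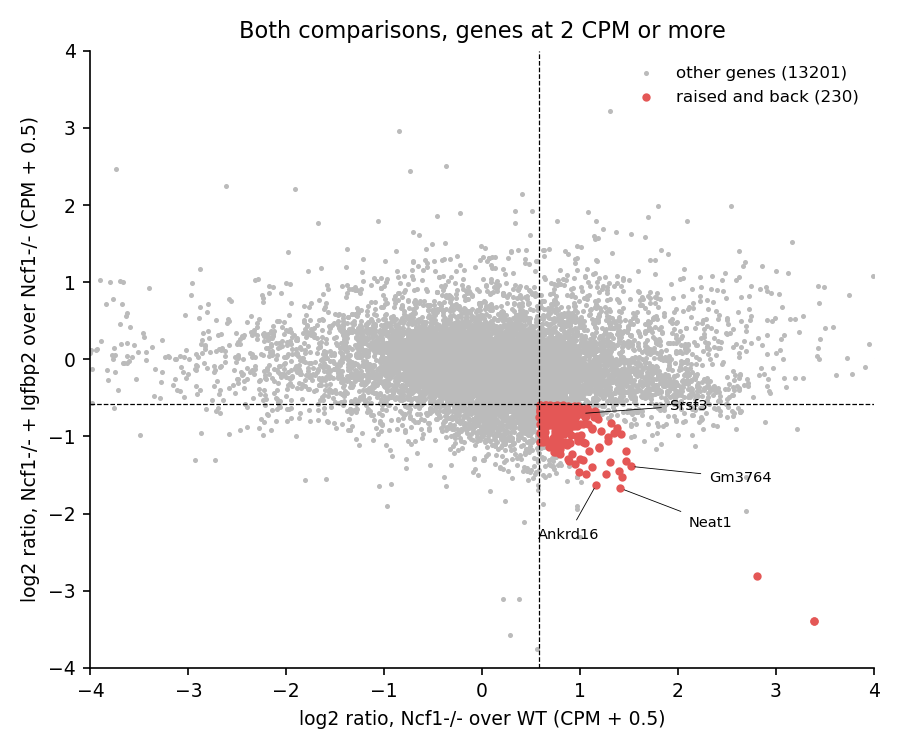
Each point is 1 of 13431 genes, with the log2 ratio of Ncf1-/- over WT on the horizontal axis and of Igfbp2-treated over vehicle-treated Ncf1-/- on the vertical axis, both from mean CPM + 0.5. Dashed lines mark 0.585 and -0.585, the 230 genes raised and back are red, and 56 genes lie outside the axes, which end at 4.

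Among symbol families with 3 or more members in the group, the SR proteins had the largest share of their genes in it, with 6 of the 11 Srsf genes measured at 2 CPM or more, against 1.71% of all genes. The members were Srsf1, Srsf2, Srsf3, Srsf5, Srsf6 and Srsf11. For all 6 the 4 Ncf1-/- libraries lay above the 8 others, which held for 12.9% of all 13431 genes. Srsf3, a small SR protein (chr17:29032628-29043373, plus strand), had 173, 157, 132 and 107 CPM in WT, 275, 285, 290 and 304 in Ncf1-/- and 193, 159, 192 and 164 with Igfbp2. Its WT and treated values overlapped, and its log2 ratios were 1.02 and -0.70.

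Srsf6 (chr2:162931528-162937121, plus strand) had 142, 151, 148 and 96.9 CPM in WT, 218, 226, 222 and 221 in Ncf1-/-, and 99.6, 100.2, 126 and 93.4 with Igfbp2. It fell furthest of the 6 with Igfbp2, by 1.08 on the log2 scale, and its treated mean lay 0.36 below WT. Srsf1 had 192, 187, 168 and 129 CPM in WT, 249, 286, 278 and 327 in Ncf1-/-, and 160, 157, 203 and 150 with Igfbp2. Its treated and WT ranges overlapped, with a log2 ratio of -0.01 between their means. Srsf2 and Srsf5 had log2 ratios of 0.80 and 0.88 over WT and fell by 0.64 and 0.72, and Srsf11 rose by 0.67 and fell by 0.74. The remaining 5 measured genes of the family differed among themselves. Srsf10 missed the rule narrowly with 0.57 and -0.63, and Srsf7 rose by 1.02 but stayed 0.55 above WT with Igfbp2. Srsf4, Srsf9 and Srsf12 had log2 ratios of 0.12, 0.38 and -0.26 over WT and of 0.03, 0.02 and 0.25 with Igfbp2.

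The promoters of Srsf3 and Srsf6 are from RefSeq on GRCm38.p6. They are shown because, of the 6 Srsf members, Srsf3 rose most over WT and Srsf6 fell furthest with Igfbp2. Capitals mark matches on either strand to any of 13 motifs searched. Srsf3 (chr17:29032410-29032709, plus strand) had a match each to TATAAA and CCAAT, and Srsf6 (chr2:162931258-162931557, plus strand) had 2 matches to GGGCGG and none to the other motifs.
Srsf3 promoter: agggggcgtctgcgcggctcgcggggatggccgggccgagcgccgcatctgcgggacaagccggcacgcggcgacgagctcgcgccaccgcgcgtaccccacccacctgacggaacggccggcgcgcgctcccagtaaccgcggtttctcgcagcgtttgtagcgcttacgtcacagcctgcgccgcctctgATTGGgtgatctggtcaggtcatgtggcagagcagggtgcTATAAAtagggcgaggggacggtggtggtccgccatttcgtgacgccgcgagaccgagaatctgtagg
Srsf6 promoter: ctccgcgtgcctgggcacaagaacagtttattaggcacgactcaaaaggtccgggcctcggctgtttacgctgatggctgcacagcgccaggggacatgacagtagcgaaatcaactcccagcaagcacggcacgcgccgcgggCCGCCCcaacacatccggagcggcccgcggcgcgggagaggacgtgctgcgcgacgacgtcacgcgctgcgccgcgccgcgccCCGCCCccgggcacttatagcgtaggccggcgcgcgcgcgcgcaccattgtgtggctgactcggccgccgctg
Among 145 of the 230 genes with a promoter in the table, TATAAA occurred in 11.7% and CCAAT in 48.3%, against 6.27% and 39.3% of 9668 promoters of all genes at 2 CPM or more. GGGCGG occurred in 55.9% against 66.7%, and CACGTG in 9.66% against 10.3%. The median GC content of these promoters was 58.3% in the group and 61.7% in all.

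**Figure D3:**
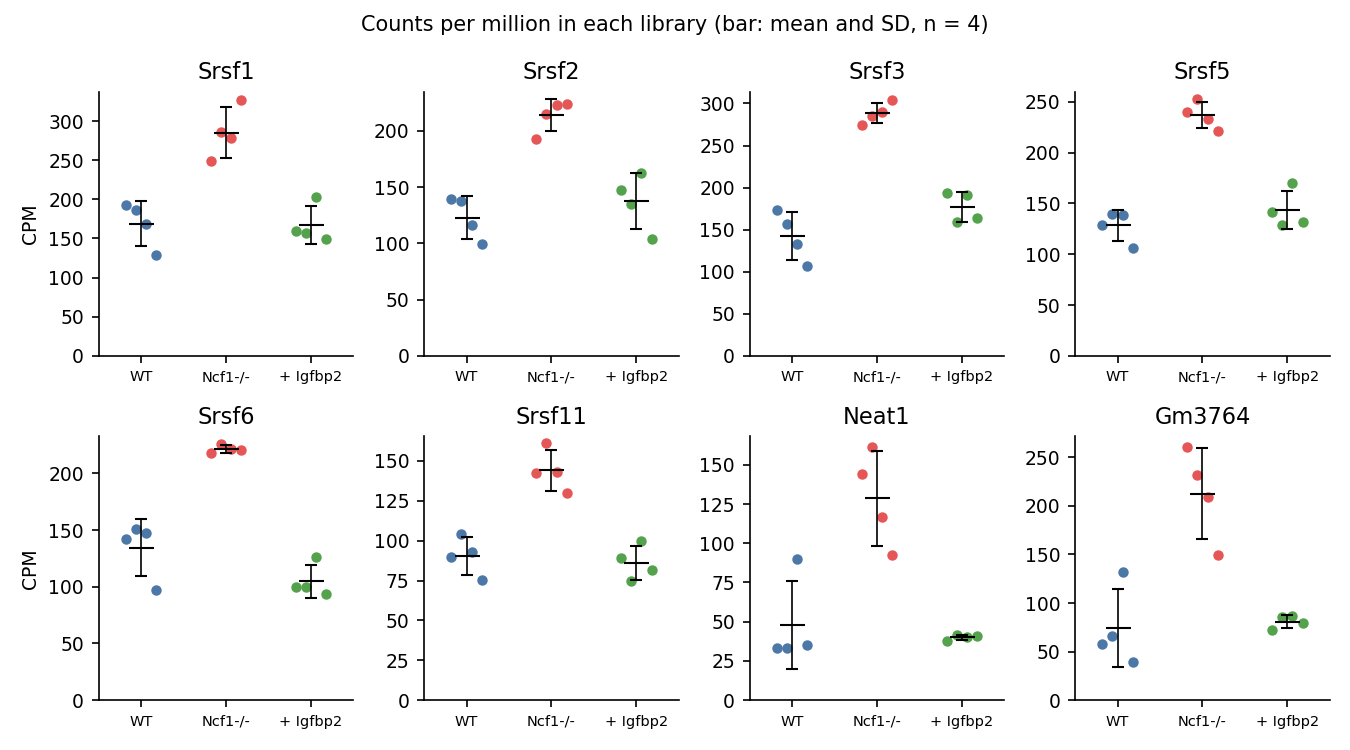
CPM of the 6 SR protein genes, Neat1 and Gm3764 in WT, Ncf1-/- and Ncf1-/- + Igfbp2, with a point per library and bars for the mean and SD of 4 libraries. In each panel the 4 Ncf1-/- points lie above the 8 others, and WT replicate 11 is the highest WT point for Neat1 and Gm3764.

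Estimated isoform length set the Ncf1-/- libraries apart from all 8 others in few of these genes. The length RSEM gives a gene is the mean of its transcripts weighted by their estimated abundance, so a change in it reflects a change in isoform mix. Of 138 members with several transcripts and at least 10 counts in every library, 2 had a shorter length in all Ncf1-/- libraries than in the 8 others (1.45%, against 1.68% of 9347 such genes) and 2 a longer one (1.45% against 0.92%). Srsf5 was 1344 to 1421 nt in Ncf1-/-, 1224 to 1336 in WT and 1228 to 1265 with Igfbp2. Rev3l was 8789 to 9451 nt in Ncf1-/-, 9834 to 10390 in WT and 9827 to 10270 with Igfbp2. Ankrd16 was longer and Cyp4f15 shorter in Ncf1-/-, and the shifts in these 4 genes were the only ones of this kind among the 138. Shifts from WT that remained with Igfbp2 were not counted. Tyms and Dleu2 had log2 ratios over WT of 1.08 and 0.76 in CPM and of 1.75 and -0.12 in TPM. Over all genes the medians were 0.17 in CPM and -0.11 in TPM, and the part of isoform length in these ratios was not tested.

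Other proteins that bind or process RNA are given next. These genes, and those of the role groups that follow, were picked after their values were seen and no enrichment of a role was tested. Hnrnpdl, a nuclear ribonucleoprotein related to Hnrnpd, had 125, 123, 112 and 93.4 CPM in WT, 287, 297, 283 and 289 in Ncf1-/-, and 153, 142, 175 and 128 with Igfbp2. Its Ncf1-/- values varied little, and its log2 ratios were 1.34 and -0.95. Tardbp, which encodes the RNA-binding protein TDP-43, had 94.6 to 136 CPM in WT, 172 to 216 in Ncf1-/- and 107 to 153 with Igfbp2. Pnisr, a nuclear speckle protein, had 50.2 to 76.2, 90.2 to 119 and 45.3 to 60.2 CPM. Ccnl1, a cyclin that associates with splicing factors, rose by 0.79 and fell by 1.11, and Clasrp, which binds the splicing kinase Clk4, rose by 0.75 and fell by 0.93. Prpf39, a component of the U1 particle, and Rbmx, an X-linked nuclear RNA-binding protein, fell by 1.14 and 1.07 with Igfbp2 after log2 ratios of 0.69 and 0.62 over WT.

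Pabpn1, which controls poly(A) tail length, Thoc1 of the export complex THO, Dis3 of the nuclear exosome and Tarbp2, a partner of Dicer, had log2 ratios over WT of 0.68, 0.67, 0.65 and 0.91. Their ratios with Igfbp2 were -0.74, -0.79, -0.61 and -0.64. Of these 12 RNA-binding or RNA-processing genes, counting the zinc-finger protein Zfp207, 11 had all Ncf1-/- libraries above the 8 others, which held for 80.9% of the 230 genes and 12.9% of all, and it is a count over genes picked from the group. The exception was Dis3, whose lowest Ncf1-/- library had 31.3 CPM and whose highest treated library had 31.4.

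Some genes that copy or repair DNA were in the group. Rev3l encodes the catalytic subunit of the translesion polymerase zeta (chr10:39732118-39875211, plus strand) and had 138, 157, 250 and 110 CPM in WT, 296, 334, 264 and 395 in Ncf1-/-, and 138, 173, 216 and 178 with Igfbp2. The Ncf1-/- libraries lay above the others by a small margin, 264 against 250 CPM. Tyms, the thymidylate synthase, had 23.3 to 35.8 CPM in WT, 61.3 to 71.4 in Ncf1-/- and 33.4 to 40.4 with Igfbp2. It was the only member among 12 measured genes of deoxynucleotide synthesis, or 8.33%, against 1.71% of all genes. Primpol, a primase-polymerase that restarts stalled forks, had log2 ratios of 0.90 and -0.70. The helicase gene Helq had 0.61 and -0.95, and Etaa1, an activator of the kinase Atr, had 0.68 and -0.85. Msh5, a meiotic MutS homologue, had 0.847 to 1.05 CPM in WT, 1.70 to 3.12 in Ncf1-/- and 1.14 to 1.64 with Igfbp2. The end-joining factor Nhej1, the glycosylase Mbd4 and the damage sensor Ddb2 were further members with log2 ratios over WT of 0.70, 0.59 and 0.74.

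Fancl encodes the ubiquitin ligase of the Fanconi core complex. It was the only member among 38 measured genes of Fanconi and Brca1 repair, or 2.63%, against 1.71% of all genes. It had 5.003, 4.02, 3.85 and 3.79 CPM in WT, 7.64, 8.82, 8.56 and 7.39 in Ncf1-/-, and 4.90, 5.55, 5.13 and 4.81 with Igfbp2. Its log2 ratios were 0.88 and -0.62, and the treated mean lay 0.26 above WT. Others failed the rule in CPM in different ways. Fanca rose by 1.80 and fell by 0.86, and with Igfbp2 it stayed 0.94 above WT. Rfc2 stayed 0.82 above WT with Igfbp2. Fancc and Atrip lay 0.19 and 0.09 above WT with Igfbp2, with log2 ratios of -0.43 and -0.18 for Igfbp2 over vehicle, short of the rule. The 38 repair genes had median log2 ratios of 1.15 and -0.34, against 0.17 and -0.12 for all genes, and edgeR called 30 of them higher in Ncf1-/-, against 28.9% of all genes tested, and 3 lower with Igfbp2, against 10.7%. The list was chosen with the study's own results on these samples known. The 24 genes of replication licensing and the 25 of mitosis held no member, where members were 1.71% of all genes. Their medians were 1.54 and -0.28 for licensing and 2.29 and -0.37 for mitosis, with 22 and 25 genes called higher in Ncf1-/-. With Igfbp2, 3 of the 24 licensing genes and 1 of the 25 mitosis genes were called lower, against the same 10.7% of all genes.

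Genes of the cilium and the centriole came next. Ift74 and Ift88, subunits of the particle that carries cargo along the cilium, had log2 ratios over WT of 1.06 and 0.68. Ift74 had 12.6 to 26.4 CPM in WT, 37.0 to 43.4 in Ncf1-/- and 21.5 to 26.1 with Igfbp2. Ccp110, which caps centrioles, had 16.5 to 30.0, 34.4 to 42.3 and 17.5 to 25.2 CPM. Sass6, of the centriole cartwheel, rose by 0.98 and fell by 0.61, and Cntrl, Sclt1 and Hyls1, proteins of the centriole, fell by 0.63, 0.75 and 0.62. Ccdc39, needed to assemble the inner dynein arms of motile cilia, had 1.86 to 5.36 CPM in WT, 5.68 to 7.52 in Ncf1-/- and 2.67 to 3.04 with Igfbp2. It overlaps the member Ttc14 on the opposite strand, and strand use in the counting is not given in the sources used here. Mns1 likewise overlaps the member Tex9, so reads of each pair cannot be told apart. The 10 listed ependymal markers, of which 1 was measured at 2 CPM or more, summed to 16.6 to 66.1 CPM in WT, 41.4 to 50.4 in Ncf1-/- and 65.9 to 87.2 with Igfbp2, and their part in these values was not tested. The kinetochore genes Zw10 and Cenpc1 had log2 ratios of 0.87 and 0.74 over WT and fell by 0.81 and 0.60.

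Members with mitochondrial roles included enzymes that act on mitochondrial transfer RNA. Trnt1, which adds the terminal CCA, had 18.7 to 27.0 CPM in WT, 45.2 to 47.4 in Ncf1-/- and 26.7 to 32.3 with Igfbp2. Trmu, which thiolates the wobble base, had 9.86 to 12.7, 17.2 to 22.6 and 10.7 to 13.2 CPM, and Cars2, a mitochondrial cysteinyl-tRNA synthetase, rose by 0.71 and fell by 0.67. Sfxn2, a mitochondrial sideroflexin, had 3.75 to 5.60, 9.79 to 10.3 and 4.26 to 4.83 CPM. Mterf2 and Sirt4 each had a log2 ratio of 0.67 over WT, with -0.77 and -0.62 for Igfbp2 over vehicle. mt-Co3, the single mitochondrially encoded member of 13 such mRNAs measured, rested on spread-out libraries, with 158, 72.5, 66.0 and 187 CPM in Ncf1-/- and 0.182 CPM in Igfbp2 replicate 8. Its groups overlapped, and it had an edgeR standard error of 0.80. No member came from the 80 nuclear respiratory chain genes, the 77 mitochondrial or the 80 cytosolic ribosomal protein genes measured. Members were 1.71% of all genes.

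Translation initiation factor Eif5 had 221, 201, 236 and 218 CPM in WT, 405, 434, 451 and 497 in Ncf1-/-, and 282, 267, 310 and 282 with Igfbp2. Its treated libraries all lay above the WT libraries, so that its level had moved towards WT without reaching the WT range. Among 22 measured Taf genes, Taf1a and Taf1d, of the polymerase I factor SL1, and Taf5, of TFIID, were members, or 13.6%, against 1.71% of all genes. Their log2 ratios were 0.64, 0.81 and 0.64 over WT and -0.85, -0.60 and -0.60 with Igfbp2. Polr3k, a polymerase III subunit, had 37.0 to 47.8 CPM in WT, 61.5 to 65.2 in Ncf1-/- and 37.9 to 44.6 with Igfbp2. Of 72 measured histone genes, 3 were members, or 4.17%, against 1.71% of all genes. Hist3h2a had 65.9 to 97.0, 125 to 138 and 80.3 to 98.8 CPM, and Hist2h2be had 6.13 to 9.63, 11.9 to 15.0 and 6.45 to 9.37 CPM, while Hist1h2bq overlapped between groups at 0.548 to 2.75, 1.83 to 3.56 and 0.262 to 1.84 CPM. The DNA methyltransferase Dnmt3b had 1.63 to 2.16, 3.10 to 4.40 and 1.40 to 2.37 CPM.

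Genes with a symbol that starts with Zfp, mostly zinc-finger genes, gave 21 members of 327 measured, or 6.42%, against 1.71% of all genes. The medians over the 327 were 0.08 and -0.35. The 21 include Zfp335os, which overlaps Zfp335 on the opposite strand. Zfp57, which maintains imprints, had 3.20 to 5.60 CPM in WT, 6.85 to 9.35 in Ncf1-/- and 2.92 to 3.23 with Igfbp2, and fell by 1.29. Zfp207, Zfp617 and Zfp639 had log2 ratios of 0.62, 0.59 and 0.67 over WT and fell by 0.74, 0.67 and 0.69. Chromosome 17 carried 23 of the 230 genes, and 4.75% of all genes lie there, and 9 of the 23 were Zfp genes. Zinc-finger genes of 1 cluster can be similar in sequence, and how the authors' counting shared reads among them was not examined. The X chromosome carried 5 members and the Y chromosome none.

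The predicted genes named Gm gave 42 members of 614, or 6.84%, against 1.71% of all genes. Gm16586 rose by 1.43 and fell by 1.53, with 3.86 to 6.29 CPM in WT, 13.6 to 16.1 in Ncf1-/- and 3.84 to 5.36 with Igfbp2. Gm37422, antisense to Smyd2, rose by 1.27 and fell by 1.49, and Gm26848 and Gm17690 rose by 1.06 and 1.29. Gm8113, a protein-coding predicted gene, had 8.86 to 20.6, 28.6 to 32.0 and 12.7 to 14.1 CPM, and RP23-253G12.9 had 4.72 to 9.50, 12.1 to 14.4 and 5.72 to 7.54 CPM. Ankrd16, an ankyrin-repeat protein that acts with alanyl-tRNA synthetase, had 11.3, 12.1, 17.3 and 9.37 CPM in WT, 30.9, 33.8, 26.2 and 24.0005 in Ncf1-/-, and 7.73, 9.27, 9.89 and 8.97 with Igfbp2. It fell by 1.63 with Igfbp2, and its treated mean lay 0.46 below WT. All 4 treated values lay below 3 of the 4 WT values. The 3 largest ratios of the group came from genes carried by 1 or 2 libraries. RP23-287A8.1 and RP24-383P24.3 had identical values, 10.3 and 8.69 CPM in Ncf1-/- replicates 1 and 4 and at most 0.00407 CPM in the other 10, so their reads cannot be told apart. Gm10222 had 11.7 CPM in Ncf1-/- replicate 4, 0.27 in replicate 3 and 0 elsewhere. No fold is given for these 3 genes.

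Some secreted and signalling proteins had WT values that were widely spread. A2m, the protease inhibitor alpha-2-macroglobulin, had the highest mean CPM of the group, with 228, 322, 2167 and 478 CPM in WT replicates 9 to 12. It had 1184, 1213, 1191 and 1222 CPM in Ncf1-/- and 749, 763, 771 and 919 with Igfbp2. Its WT mean thus rested on replicate 11, and without that library its log2 ratio over WT was 1.81 and its treated mean no longer met the rule. Slc39a14, a metal transporter, and Il17rd, a membrane inhibitor of FGF signalling, had WT ranges of 21.6 to 80.7 and 36.8 to 90.9 CPM that overlapped the Ncf1-/- ranges of 59.96 to 78.5 and 66.8 to 101.1 CPM. Rasa2, a Ras GTPase activator, and the thrombospondin Thbs3 also had their highest WT value in replicate 11, at 77.9 and 21.9 CPM. Without replicate 11 the treated means of Rasa2, Thbs3 and Slc39a14 lay 0.84, 0.70 and 0.64 above WT, and these genes too no longer met the rule. The transcription factor Ets1 had 17.2 to 56.2 CPM in WT, 66.4 to 79.0 in Ncf1-/- and 39.2 to 42.2 with Igfbp2. Flrt3, a leucine-rich membrane protein, and the protease Adamts10 had no overlap of Ncf1-/- with the other groups, and their log2 ratios were 0.91 and -0.99 for Flrt3 and 1.13 and -0.90 for Adamts10.

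Over the whole group the median log2 ratio was 0.80 for Ncf1-/- over WT, -0.79 for Igfbp2 over vehicle and -0.02 for treated Ncf1-/- over WT, against 0.17, -0.12 and 0.01 over all 13431 genes. Against WT replicate 12 alone, the WT library like the treated ones in Y-linked RNA, the treated median of the group was 0.26. By library, the median log2 ratio of the members to their WT mean was 0.75 to 0.87 in Ncf1-/- and -0.07 to 0.07 with Igfbp2. In WT it ran from -0.27 in replicate 12 to 0.20 in replicate 11. The median coefficient of variation of the members was 22.6% in WT, 11.1% in Ncf1-/- and 14.6% with Igfbp2, and over all genes it was 13.9%, 8.97% and 10.7%. The 4 Ncf1-/- libraries lay above the 4 WT libraries for 190 of the 230 genes, which held for 36.8% of all genes. The treated libraries lay below the Ncf1-/- libraries for 213, against 28.4% of all, and both held for 186 genes, against 12.9%. These counts follow from the rule and are given as descriptions.

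**Figure D4:**
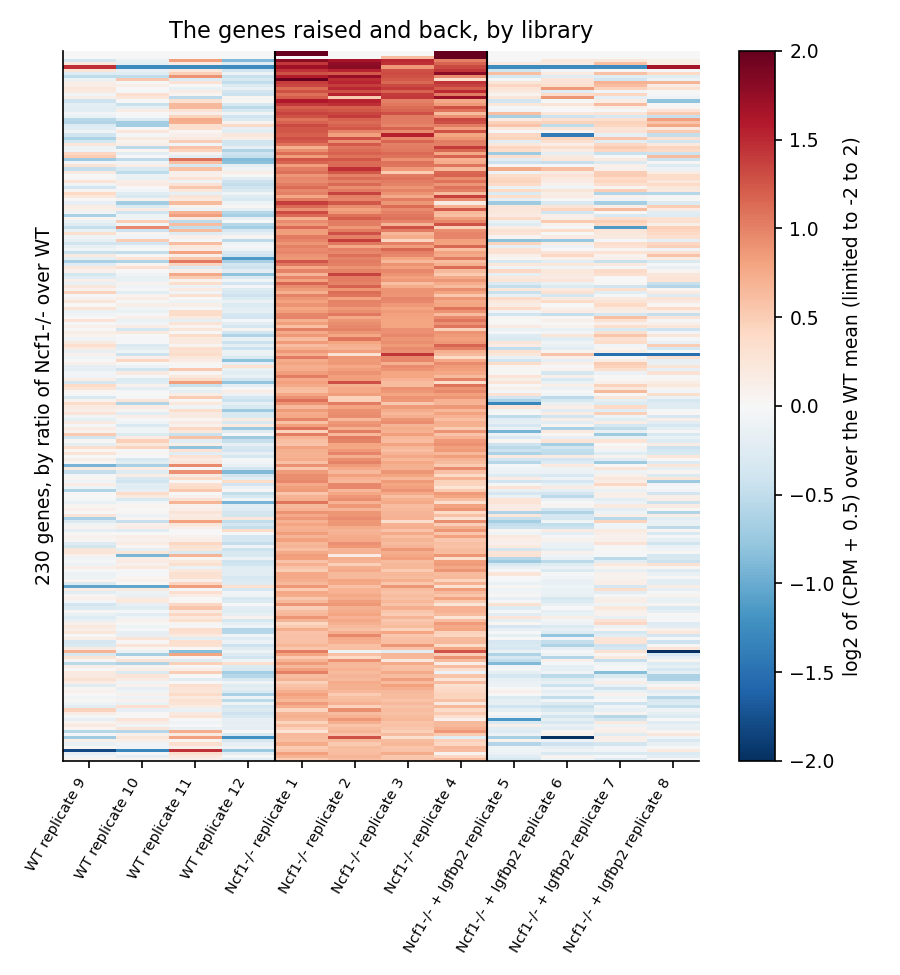
Rows are the 230 genes, ordered by the ratio of Ncf1-/- over WT, and columns the 12 libraries. Colour gives log2 of CPM + 0.5 over the WT mean, limited to -2 and 2, with the Ncf1-/- columns red and the treated columns near the WT columns, where replicate 11 is the reddest and replicate 12 the bluest.

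The edgeR fit over all genes tested 227 of the 230 genes. The counts of members called follow largely from the rule, which used the same libraries, and are given as descriptions. It called 201 higher in Ncf1-/- than WT (edgeR's quasi-likelihood test, Benjamini-Hochberg adjusted), against 28.9% of 15706 genes called higher. It called 181 lower with Igfbp2, against 10.7% of genes, and 28 between treated Ncf1-/- and WT in either direction, against 62.4%. Both of the first 2 calls held for 176 genes, and 148 of these were not called against WT, which does not show that they equalled WT. With TMM scaling 4545 genes were called higher and 4433 lower in Ncf1-/- than WT, and 2238 higher and 1685 lower with Igfbp2. With library sums in place of TMM these splits were 5993 against 3284 and 955 against 3773, and 213 and 207 members were called in the direction of the rule.

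The scaling also decided how many genes met the rule. TMM factors shifted the median over all genes to -0.02 and 0.02, and 94 genes then met the rule, of which 90 belonged to the 230. The mirrored rule held 168 genes with TMM factors and 180 with DESeq2 size factors, against 83 as defined. With DESeq2 size factors 85 genes met the rule itself. Every one of the 230 genes kept its direction in both comparisons with TMM factors, with medians of 0.63 and -0.66, but the smaller ratios fell short of 0.585. Neat1, Gm3764, 6720427I07Rik, Ankrd16, Hnrnpdl, Rev3l and Tyms still met the rule with TMM factors, but of these only 6720427I07Rik also met it with TPM, with WT matched by Y-linked RNA and without WT replicate 11 or 12. None of the 6 Srsf genes did, with ratios of 0.47 to 0.82 over WT and of -0.93 to -0.49 with Igfbp2. With TPM in place of CPM 208 genes met the rule but only 57 of them belonged to the 230, Srsf3 alone of the Srsf genes. In TPM the treated means of Neat1 and Ankrd16 lay 0.83 and 0.65 below WT and that of Tyms 1.19 above it, outside the rule. Comparing Ncf1-/- with WT replicates 9 to 11 and treated cultures with WT replicate 12, which are alike in Y-linked RNA, 158 genes met the rule, 140 of them among the 230 and 5 of them Srsf genes. With the WT libraries matched in this way the treated means of Gm3764, Hnrnpdl, Rev3l and Tyms lay 1.02, 0.67, 0.68 and 0.61 above WT and no longer met the rule. Those of Ets1, Ift74 and Srsf3 lay 1.22, 0.93 and 0.72 above WT, outside the rule too. Further named genes outside it included Gm8113, Gm17690, Hist1h2bq, Trnt1 and Thbs3. Of the 9 cilium and centriole genes named, 2 met the rule in this setting, Mns1 and Ccp110. Without WT replicate 12 the treated mean of Ankrd16 lay 0.57 below WT, also outside the rule. Gm26848, Zfp57, Snhg17, Snhg20, Prpf39, Rbmx, Tardbp, Thoc1, Zfp207, Helq, Ift88, Cntrl, Sclt1, Polr3k, Taf5, Rasa2, A2m and A330023F24Rik left the rule without that library too, and Ift74, Mns1, Sclt1, mt-Co3 and Taf5 left it without WT replicate 11, beside the genes given above. Of the 230 genes, 106 met the rule without each of the 12 libraries in turn.

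**Figure D5:**
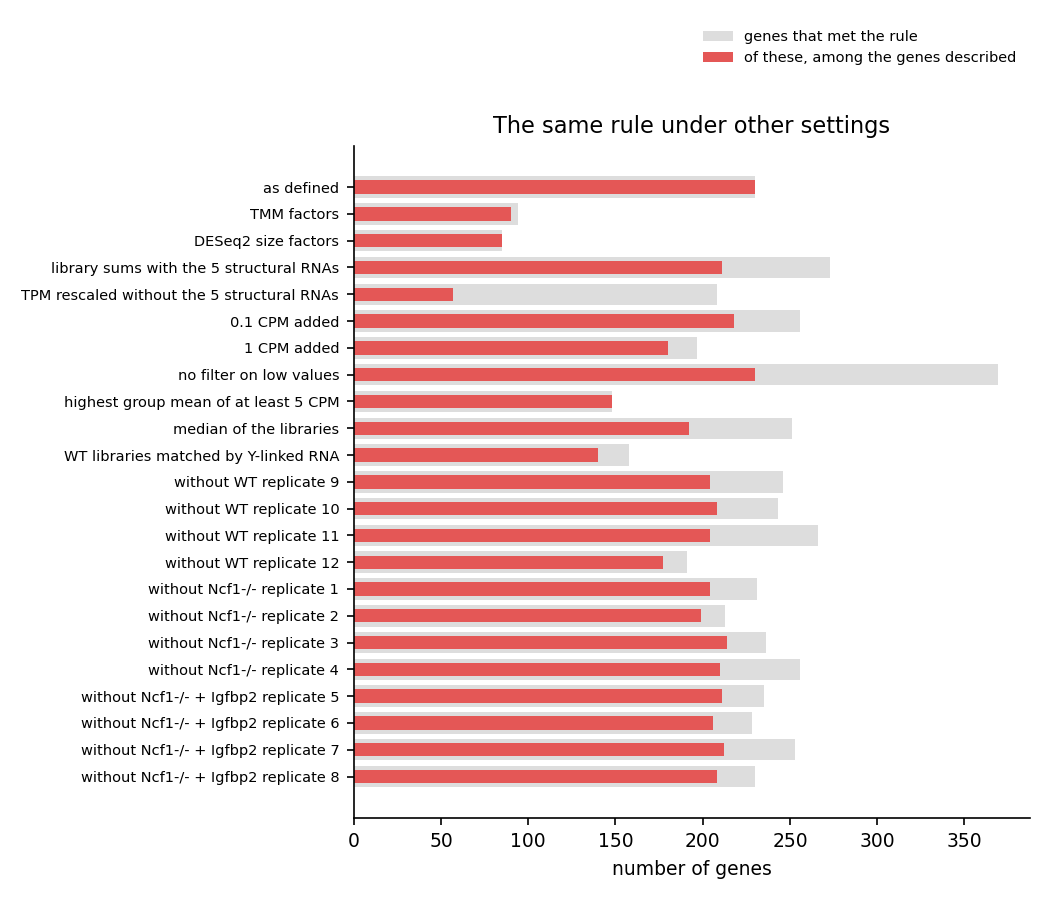
Grey bars give the number of genes that met the same rule under each setting (vertical axis) and red bars how many of these were among the 230 described. The red bar is shortest with TPM, at 57, and with DESeq2 and TMM scaling it is 85 and 90, while without any 1 library it stays between 177 and 214.

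The thresholds were closely lined on both sides. Lmo3, Mbd4 and Gm26724 entered with log2 ratios over WT of 0.59 each, and Zfp709, Ccdc22 and C330007P06Rik missed with 0.58 each. A2m, Fastkd3 and Accs entered with -0.59 for Igfbp2 over vehicle, and 5430403G16Rik, Gm17259 and Zfp948 missed with -0.58 each. Atp10d, 2810429I04Rik and Rasa2 entered with 0.49, 0.49 and 0.48 for treated Ncf1-/- over WT, and RP23-371A16.3, Gm13502 and Hmgn2 missed with -0.50, 0.51 and 0.51. Gm15542, Gm37296 and RP23-106G24.2 entered with a highest mean of 2.03, 2.03 and 2.08 CPM, and Chmp4c, RP23-446B13.7 and Trpc2 missed with 1.99 CPM each.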

How the data were processed

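The 12 libraries, 4 per group, were analysed, with groups taken from the labels. The authors mapped reads with Bowtie2 to GRCm38 and quantified genes with RSEM, and they deposited per library expected counts (estimated counts, not normalized), TPM and FPKM, the last unused. The merged table that the authors deposited holds a score equal to TPM times the number of transcripts, and it was used only for gene symbols. The annotation release and strandedness are not given in the sources used here. CPM were computed here from expected counts over library sums without Rn7s1, Rn7s2, Rn7sk, Rpph1 and Rmrp, which took 8.82% to 19.9% of counts and would otherwise shift every value. The members and lists were chosen with earlier results of these data known.

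Rounded counts were tested with edgeR 4.0.16 (filterByExpr, TMM, quasi-likelihood, 12 libraries, adjusted p below 0.05) in R 4.3.3. Alternatives used DESeq2 1.42.0, other scalings, other filters, the study's own test on TPM and leaving out each library. The tests were checked on simulated data. Coordinates and gene types are from GENCODE M21 (GRCm38, 227 of 230 members found), and promoters and microRNAs from RefSeq (GRCm38.p6). The genes named were the 12 with the largest smaller ratio among members at 5 CPM or more with no overlap, the 8 with the highest mean among members with no overlap, up to 3 per gene list, those the study names and those next to a threshold. Some genes that this rule names are not reported here. The study pairs vehicle and treated cultures by animal, but no vehicle and treated library share a number in the labels, which do not give the pairs. The pairs used here are therefore not certain. They had correlations of deviations of -0.07 to 0.03 over 4 pairs, against -0.25 to 0.26 over 12 other pairs. The study's test used no pairing, and neither did the fit here. P-values measure the spread between cultures.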

Additional observations from a re-analysis of the deposited data

Results flagged for a closer look

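Among 246 groups of 4 libraries, for 82 genes named in the text, a library stood far from the other 3 of its group in 27 by Dixon's ratio of the gap to the range, and chance gives about 1 in 20 groups. Igfbp2 replicate 7 was the highest treated library for Zw10 (20.2 CPM), Snhg4 (5.77), Clasrp (30.1), Ccp110 (25.2), Snhg17 (11.3), Tardbp (153), Taf1a (5.38), Sclt1 (7.31) and Taf5 (11.1), and the lowest for Primpol (4.41 CPM). Igfbp2 replicate 8 was the highest for Gm37795 (2.46 CPM), Rasa2 (69.2) and A2m (919) and the lowest for Cars2 (9.65 CPM). Igfbp2 replicate 6 was the lowest for Cenpc1 (29.0 CPM), and replicate 5 the highest for Polr3k (44.6 CPM). WT replicate 11 was the highest WT library for Neat1 (90.0 CPM), Thbs3 (21.9) and A2m (2167). WT replicate 12 was the lowest for Srsf6 (96.9 CPM), Pabpn1 (68.6) and Cenpc1 (23.8), and WT replicate 10 the highest for Hist1h2bq (2.75 CPM). In Ncf1-/-, replicate 2 was the highest for Ccdc39 (7.52 CPM) and Dleu2 (22.3), and replicate 4 the lowest for Msh5 (1.70 CPM) and Tarbp2 (26.6).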

How the results depend on the processing

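The number of genes that met the rule, 230 as defined, was 94 with TMM factors, 85 with DESeq2 size factors, 369 with no filter on low values, 148 with a highest mean of at least 5 CPM, and 191 to 266 without 1 library, the lowest without WT replicate 12 and the highest without WT replicate 11. The study's own test on TPM called 4329 genes between Ncf1-/- and WT (8254 to 9406 in edgeR without 1 library), 2149 between treated and vehicle-treated Ncf1-/- (2294 to 4872) and 5592 between treated Ncf1-/- and WT (9192 to 10031). It called 93 of 230 members higher in Ncf1-/-, against 2271 of 27880 genes, and 2 between treated Ncf1-/- and WT, against 5592 genes. In edgeR without 1 library 175 to 214 of 227 members were called higher, against 3956 to 4907 of 15852 to 16078 genes. Against WT it called 16 to 38 treated members and 9192 to 10031 genes there, and 16 and 9912 with no filter. Without 1 library 138 to 204 members were called lower with Igfbp2, against 1021 to 2088 genes. The member counts follow largely from the rule. The low counts between the Ncf1-/- groups came without Ncf1-/- replicate 2 (2294), Ncf1-/- replicate 1 (2320) and Igfbp2 replicate 6 (2550), and those of members against WT without Igfbp2 replicates 8 (16) and 5 (18). With a replicate block for the pairs used here, in the 8 Ncf1-/- libraries, 5434 genes were called with Igfbp2, 2560 of them lower, and 217 members were called lower. The same libraries without the block, an alternative chosen after seeing the data, gave 5709, 2759 and 222. Because every stated pair differed in Y-linked RNA, these counts cannot show what pairing by animal would change. Dleu2 had a log2 ratio of -0.12 over WT in TPM, and the cause was not tested. Of the other values for named genes, 3466 stayed within their limits and 141 moved. Depth limits the 82 genes under 5 CPM most.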
